A study of Mus musculus with 2 samples.

Results

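The nuclear-encoded subunits of the mitochondrial respiratory chain and ATP synthase were described across the cell types of the mouse ovary and between an exposed and a control library. Members were all gene symbols in both gene files that began with Nduf, Sdha, Sdhb, Sdhc, Sdhd, Uqcr, Cox4, Cox5, Cox6, Cox7 or Atp5, less the tissue-restricted isoforms Cox4i2, Ndufa4l2 and Cox6a2 and the assembly factors. Of 97 symbols with such a prefix, 3 were left out by name, and 8 Ndufaf and 4 Sdhaf genes were left out as assembly factors. The 82 members left, of 26549 symbols in both files, comprised 38 genes of complex I, 4 of complex II, 8 of complex III, 15 of complex IV and 17 of complex V, the ATP synthase. Ndufa4 was counted with complex IV, where its product is now placed, and 1 member, Cox5b-ps, is a pseudogene.

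Both libraries were made from ovaries of female ICR mice, an outbred stock, at 8 weeks of age, and single cells were captured on beads with the BD Rhapsody system. Control mice were given water (ddH2O) by gavage each day for 35 days from 3 weeks of age. The PS-MP mice were given 1 mg of polystyrene microplastics (PS-MPs) of 0.1 µm in 100 µL on the same schedule. The labels state 16 mice without saying whether per group or in all, and no cell is tied to a mouse, so each group was 1 sample and no test of the exposure was possible. Every interval given is a 95% exact interval that covers counting error only, and each PS-MP over control value compares these 2 libraries.

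Complexes I to IV pass electrons from NADH and succinate to oxygen and, except for complex II, pump protons across the inner mitochondrial membrane, and ATP synthase uses the return flow of protons to make ATP. Most subunits are encoded in the nucleus and a small set in the mitochondrial genome, so each complex except the wholly nuclear-encoded complex II is built from both. In the ovary, steroid-producing cells also use mitochondria for the first step of steroid synthesis, and the oocyte carries a large mitochondrial stock that the embryo inherits. Several complex IV and ATP synthase subunits exist as isoforms from separate genes, of which some are widespread and others are known from muscle or testis.

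The files held 15373 control and 15056 PS-MP cells, with median totals of 9426 and 8613.5 molecule counts (UMIs) per cell and none under 3575. After filtering, 14538 and 14412 cells remained. Joint clustering gave 19 clusters, which were named from marker genes and are therefore called "-like". Granulosa-like cells formed 7 clusters with 10241 control and 9120 PS-MP cells in all, and cluster 1 among them had none of the granulosa markers among its 10 leading genes. A luteal-like cluster led by Edn2 held 8 control and 1900 PS-MP cells, so it has no control level and was kept apart from the luteal-like cluster led by Akr1c18, with 229 and 131 cells. The other classes described were theca-like (798 and 745 cells), stromal-like, with fibroblast markers (1700 and 1543), endothelial-like, of blood vessels (350 and 313), macrophage-like cells, which may include monocytes (742 and 352), mural-like, meaning smooth muscle or pericyte (145 and 90) and oocyte-like (75 and 94). Clusters with under 50 cells in a library were T, NK or innate lymphoid-like (98 and 48), dendritic-like (61 and 42), plasmacytoid dendritic-like (71 and 22) and surface epithelium-like (20 and 12), and they were left out of the comparisons. RNA from other cells was present in every class: Inha, an inhibin subunit of granulosa cells, stood at 9395 CPM (counts per 1000000 counts of a class) in granulosa-like and at 1322 CPM in endothelial-like control cells. The 2 libraries shared 3 cell barcodes.

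Among the 8 classes with at least 50 cells in both libraries, respiratory chain mRNA took the largest share of counts in oocyte-like, Akr1c18-led luteal-like and theca-like cells and the smallest in stromal-like and macrophage-like cells. Members together made up 2.18% of all counts in oocyte-like control cells and 2.23% in oocyte-like PS-MP cells. The share was 2.11% and 2.06% in the Akr1c18-led luteal-like cluster, 1.93% and 1.97% in theca-like cells, and 1.74% and 1.85% in granulosa-like cells. It was 1.54% and 1.74% in mural-like, 1.46% and 1.57% in endothelial-like, 1.33% and 1.42% in stromal-like, and 1.31% and 1.27% in macrophage-like cells. The order of these 8 classes was the same in both libraries. Stromal-like and macrophage-like cells lay closest, and in the control library their intervals, 1.322% to 1.334% and 1.301% to 1.319%, were only just apart. The Edn2-led luteal-like cluster stood at 1.77% in the PS-MP library, below granulosa-like cells of that library. Of the smaller clusters, dendritic-like cells stood at 1.10% and 1.02% and plasmacytoid dendritic-like cells at 1.10% and 1.14%, below all 8 classes. The remaining smaller clusters stood higher. Complex V alone took 0.599% and 0.646% in T, NK or innate lymphoid-like cells and 0.551% and 0.760% in surface epithelium-like cells. In dendritic-like cells it took 0.374% and 0.371%.

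**Figure D1:**
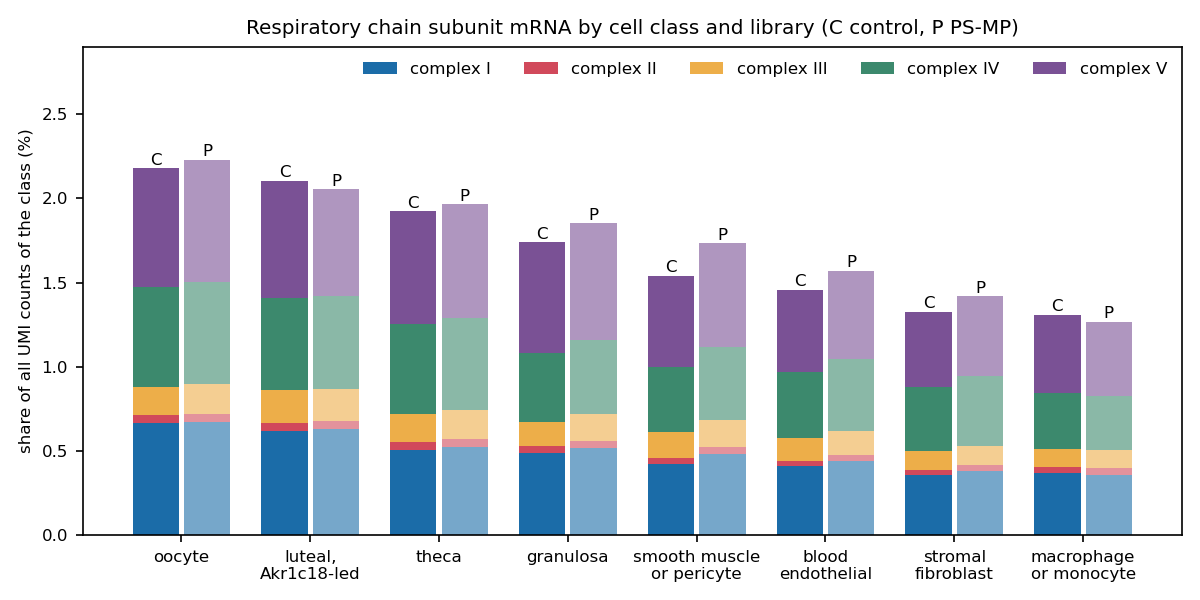
Summed counts of the members of each complex as a share of all UMI counts of a cell class (%), as stacked bars for the control (C) and PS-MP (P) library. Oocyte-like cells reach 2.18% and 2.23%, and macrophage-like cells 1.31% and 1.27%.

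In all 5 complexes the share was higher in oocyte-like than in stromal-like control cells. Complex I genes made up 0.666% of counts in oocyte-like and 0.357% in stromal-like control cells. Complex IV genes made up 0.594% and 0.380% of counts in the same classes, and complex V genes 0.707% and 0.448%. Between theca-like and granulosa-like control cells, complex IV differed most, with 0.531% against 0.410%, while complex V stood at 0.674% against 0.657%. Much of the complex IV gap lay in 1 gene, Cox6c, at 1272 against 572 CPM. A share depends on what else a class expresses: the median of all genes tested, as log2 of theca-like over granulosa-like cells, was −0.14 in the control and −0.15 in the PS-MP library. It was 0.13 in both libraries for oocyte-like cells, −0.39 and −0.37 for macrophage-like cells and −0.21 and −0.22 for stromal-like cells. Relative to that median, the summed members of oocyte-like over granulosa-like cells came to 0.19 and 0.14 on the log2 scale, those of the Akr1c18-led luteal-like cluster to 0.44 and 0.32, and those of theca-like cells to 0.28 and 0.24. For stromal-like cells the relative values were −0.18 and −0.17, and for macrophage-like cells −0.02 and −0.18.

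Most members varied little between classes. Over the 8 classes, 79 members reached 20 CPM in at least 1 class, and the ratio of their highest to their lowest class level had a median of 2.12, against 3.94 for the 10816 genes that met the same limit. This ratio was at most 2-fold for 43.0% of these members and for 17.8% of all such genes. The genes compared were not matched for level, and counting error can widen this ratio for genes near the limit. The part of level in the difference was not tested. The highest class was oocyte-like for 41 members, the Akr1c18-led luteal-like cluster for 23 and theca-like for 8. Oocyte-like cells were also the highest class for 31.3% of all genes. The lowest class was stromal-like for 34 members and macrophage-like for 30, against 10.4% and 21.8% of all genes. The highest class was the same in both libraries for 67 of the 79 members, and the lowest for 48. Matching shares of all genes are not given for the Akr1c18-led and theca-like counts or for this sameness between libraries. Those counts cannot be called particular to the members. Cox7b2, Ndufb11b and Cox5b-ps were the 3 members under the limit.

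**Figure D2:**
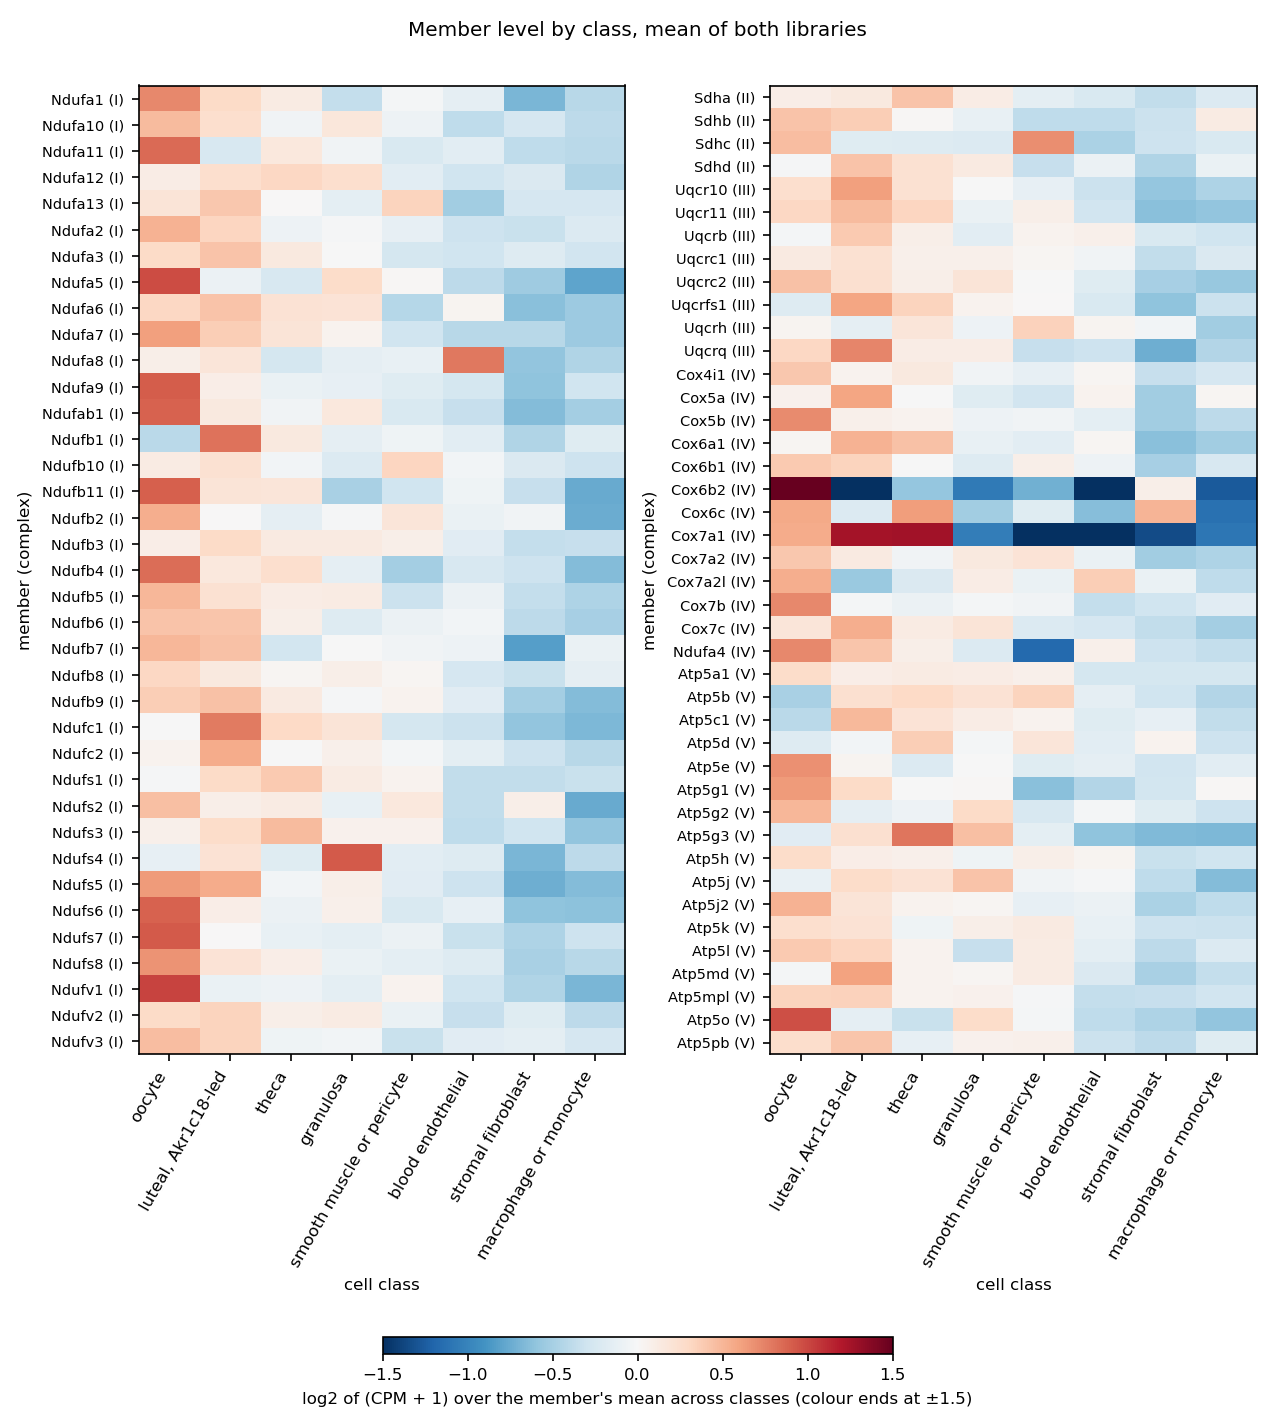
Level of the 79 members that reached 20 CPM, in 8 cell classes, as log2 of CPM plus 1 over the member's mean across classes (mean of both libraries, colour ends at ±1.5). Most rows are pale, and Cox6b2, Cox7a1, Ndufs4 and Ndufa4 stand out.

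Complex I, which oxidises NADH, held 1 of the 2 members that were highest in granulosa-like cells, the other being Atp5j, a stalk subunit of ATP synthase. Ndufs4, an accessory subunit of the NADH-oxidising arm known from inherited complex I deficiency, stood at 241 CPM in granulosa-like control cells and 218 CPM in granulosa-like PS-MP cells. In the rest of the 8 classes its levels were lower in both libraries, from 142 and 139 CPM in the Akr1c18-led luteal-like cluster to 74.6 and 75.4 CPM in stromal-like cells. The Edn2-led cluster stood at 204 CPM in the PS-MP library. T, NK or innate lymphoid-like cells, outside the 8 classes, stood at 170 and 207 CPM. Their granulosa markers summed to 8500 and 8450 CPM. For Ndufs4, stromal-like over granulosa-like cells gave a ratio of 0.309 (0.292 to 0.328) in the control library and 0.346 (0.324 to 0.369) in the PS-MP library. All classes compared with granulosa-like cells, other than the Edn2-led cluster, were at least 1.5-fold lower for Ndufs4 in both libraries.

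Several other complex I genes were highest in oocyte-like cells. Ndufv1, a core subunit that binds NADH, stood at 89.7 and 86.2 CPM in oocyte-like cells of the control and PS-MP libraries, 38.1 and 39.6 CPM in granulosa-like cells and 28.2 and 24.7 CPM in macrophage-like cells. Ndufb11, an accessory subunit of the membrane arm, stood at 339 and 348 CPM in oocyte-like and 129 and 133 CPM in granulosa-like cells. Ndufab1, the mitochondrial acyl carrier protein, stood at 385 and 402 CPM in oocyte-like and 133 and 137 CPM in stromal-like cells. Ndufa5, an accessory subunit of the peripheral arm, had its highest level in oocyte-like cells, at 161 and 138 CPM, and its lowest in macrophage-like cells, at 43.8 and 42.8 CPM. Ndufa8, an accessory subunit, differed from the rest: at 155 and 170 CPM in endothelial-like cells it was 1.86-fold (1.69 to 2.04) and 1.96-fold (1.76 to 2.17) above granulosa-like cells. Ndufs1, a core iron-sulphur subunit, was highest in theca-like control cells at 98.1 CPM but in mural-like PS-MP cells at 80.3 CPM, so its highest class was not the same in both libraries.

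In complex II, which passes electrons from succinate, Sdha was highest in theca-like and lowest in stromal-like cells, and Sdhc was highest in mural-like cells. Sdha, the flavoprotein of succinate dehydrogenase, stood at 192 and 185 CPM in theca-like cells, 148 and 155 CPM in granulosa-like cells and 108 and 109 CPM in stromal-like cells. Sdhc, a membrane anchor of the same complex, stood at 134 and 122 CPM in mural-like against 67.9 and 68.4 CPM in granulosa-like cells. These are ratios of 1.97 (1.65 to 2.33) and 1.78 (1.40 to 2.25). Among complex III genes, the Rieske iron-sulphur protein gene Uqcrfs1 stood at 156 and 188 CPM in the Akr1c18-led luteal-like cluster, 112 and 123 CPM in granulosa-like cells and 72.0 and 76.0 CPM in stromal-like cells. Uqcrc1, a core subunit, was flatter and stayed between 53.0 and 84.7 CPM in the 8 classes of both libraries.

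Complex IV, cytochrome c oxidase, held the isoform genes with the widest ranges. Cox6b2, the isoform of the intermembrane-space subunit 6B known from testis, stood at 110 and 88.4 CPM in oocyte-like cells of the control and PS-MP libraries. It stood at 23.1 and 23.0 CPM in stromal-like, 9.46 and 10.1 CPM in granulosa-like and 3.37 and 1.35 CPM in endothelial-like cells. Of Cox6b1 and Cox6b2 counts together, Cox6b2 made up 14.5% (12.8 to 16.4) in oocyte-like control cells and 12.6% (10.8 to 14.5) in oocyte-like PS-MP cells. Its part was 6.57% and 6.12% in stromal-like, 2.26% and 2.30% in granulosa-like and 0.780% and 0.280% in endothelial-like cells. At least 1 Cox6b2 count was found in 73.3% and 51.1% of oocyte-like cells, whose median depths were 25578 and 15435.5 counts, and in 2.57% and 0.958% of endothelial-like cells, whose median depths were 6931.5 and 5970 counts. With every cell thinned to 3500 counts, which left out 0 cells, the shares were 29.3% and 22.3% in oocyte-like, 3.34% and 3.23% in granulosa-like and 1.14% and 0.319% in endothelial-like cells. Cox6b1, the widespread isoform, varied less than 2-fold, from 328 and 353 CPM in stromal-like to 648 and 614 CPM in oocyte-like cells. Granulosa markers summed to 3475 and 4143 CPM in oocyte-like cells, against 17029 and 15856 CPM in granulosa-like cells, while Cox6b2 was higher in oocyte-like cells.

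Among the 8 classes Cox7a1, the subunit 7A isoform known from heart and skeletal muscle, was highest in theca-like and Akr1c18-led luteal-like cells. It stood at 38.2 and 45.4 CPM in theca-like cells, 31.9 and 50.9 CPM in the Akr1c18-led luteal-like cluster and 17.9 and 32.7 CPM in oocyte-like cells. Granulosa-like cells had 7.92 and 7.48 CPM, and endothelial-like cells 0.337 and 2.24 CPM, from 1 and 5 counts. The Edn2-led luteal-like cluster lay between, at 12.7 CPM. The few surface epithelium-like cells, outside the 8 classes, stood at 57.2 and 47.6 CPM from 9 and 5 counts. Of Cox7a1 and Cox7a2 counts together, Cox7a1 made up 18.7% (16.9 to 20.6) and 21.1% (19.0 to 23.3) in theca-like cells and 4.01% and 3.67% in granulosa-like cells. At least 1 count was found in 27.6% and 25.8% of theca-like cells and in 0.286% and 1.60% of endothelial-like cells, at median depths of 9800 and 7956 and of 6931.5 and 5970 counts. Thinned to 3500 counts per cell, these shares were 11.5% and 12.3% in theca-like and 0.286% and 0.639% in endothelial-like cells. Cox7a2, the widespread isoform, ranged from 123 and 118 CPM in stromal-like to 213 and 247 CPM in oocyte-like cells. Cox7a2l, which takes part in joining complexes III and IV, made up 67.1% and 64.9% of Cox7a2 and Cox7a2l counts in endothelial-like cells and 44.8% and 48.1% in the Akr1c18-led cluster.

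The promoters of these isoform pairs are shown because Cox6b2 and Cox7a1 had the widest ranges across classes among the members, and Cox6b1 and Cox7a2 are their widespread counterparts. Each window runs from 250 bases before to 50 bases after the gene's start, from RefSeq on GRCm38.p6, in the gene's own direction. Of these 4 windows only that of Cox6b1 held one of the motifs searched, CCGGAAG, the core bound by ETS factors such as GABP. Capitals mark it, and it reads CTTCCGG on the strand printed. Cox6b1 lies at chr7:30626065-30626364 on the minus strand, Cox6b2 at chr7:4753045-4753344 on the minus strand, Cox7a2 at chr9:79759804-79760103 on the minus strand and Cox7a1 at chr7:30183921-30184220 on the plus strand.
Cox6b1: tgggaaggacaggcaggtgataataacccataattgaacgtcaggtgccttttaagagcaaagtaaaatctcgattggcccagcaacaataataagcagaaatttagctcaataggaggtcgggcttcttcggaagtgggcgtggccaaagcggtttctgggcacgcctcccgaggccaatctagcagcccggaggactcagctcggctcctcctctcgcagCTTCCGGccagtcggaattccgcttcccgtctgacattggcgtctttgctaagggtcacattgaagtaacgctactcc
Cox6b2: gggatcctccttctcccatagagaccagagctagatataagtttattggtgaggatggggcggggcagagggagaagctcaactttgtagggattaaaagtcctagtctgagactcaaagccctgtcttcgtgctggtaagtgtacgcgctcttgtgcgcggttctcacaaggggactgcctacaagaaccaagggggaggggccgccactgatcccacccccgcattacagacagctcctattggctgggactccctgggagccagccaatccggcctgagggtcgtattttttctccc
Cox7a2: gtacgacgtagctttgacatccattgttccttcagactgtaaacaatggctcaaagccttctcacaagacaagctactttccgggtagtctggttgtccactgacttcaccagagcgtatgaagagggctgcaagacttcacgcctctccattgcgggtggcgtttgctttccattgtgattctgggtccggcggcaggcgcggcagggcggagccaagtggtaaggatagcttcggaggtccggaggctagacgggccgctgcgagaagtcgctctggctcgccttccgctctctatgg
Cox7a1: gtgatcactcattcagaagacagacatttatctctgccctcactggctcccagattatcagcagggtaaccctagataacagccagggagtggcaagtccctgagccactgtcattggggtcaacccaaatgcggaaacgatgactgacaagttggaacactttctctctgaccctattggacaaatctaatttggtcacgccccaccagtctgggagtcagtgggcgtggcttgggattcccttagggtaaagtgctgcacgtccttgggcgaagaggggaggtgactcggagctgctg
The widespread isoforms had 17 (Cox6b1) and 20 (Cox7a2) CpG dinucleotides in 300 bases, and the restricted ones 10 (Cox6b2) and 7 (Cox7a1). The median was 19 over the 73 windows of the 68 members that matched the table and 7 over all 32851 windows. Windows of members held the NRF1 motif (GCGC and TGCGC with 1 base of any kind between) in 24.7% against 4.60% of all windows, CCGGAAG in 21.9% against 8.86%, and the YY1 motif AAGATGGC in 13.7% against 2.75%, each on either strand and without regard to overlap between motifs. TCAAGGTCA, bound by NR5A1 and oestrogen-related receptors, was found in 2 member windows (2.74% against 0.423%). A match describes the letters and is not evidence of binding, and member windows also had a higher GC content, with a median of 58.3% against 52.7%. Member windows were richer in CpG too, as given above, and the windows compared were not matched for CpG or for expression in these cells. The motif shares therefore cannot be called particular to the members. AAGATGGC holds the letters ATG, and overlap of its matches with translation starts was not tested.

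**Figure D3:**
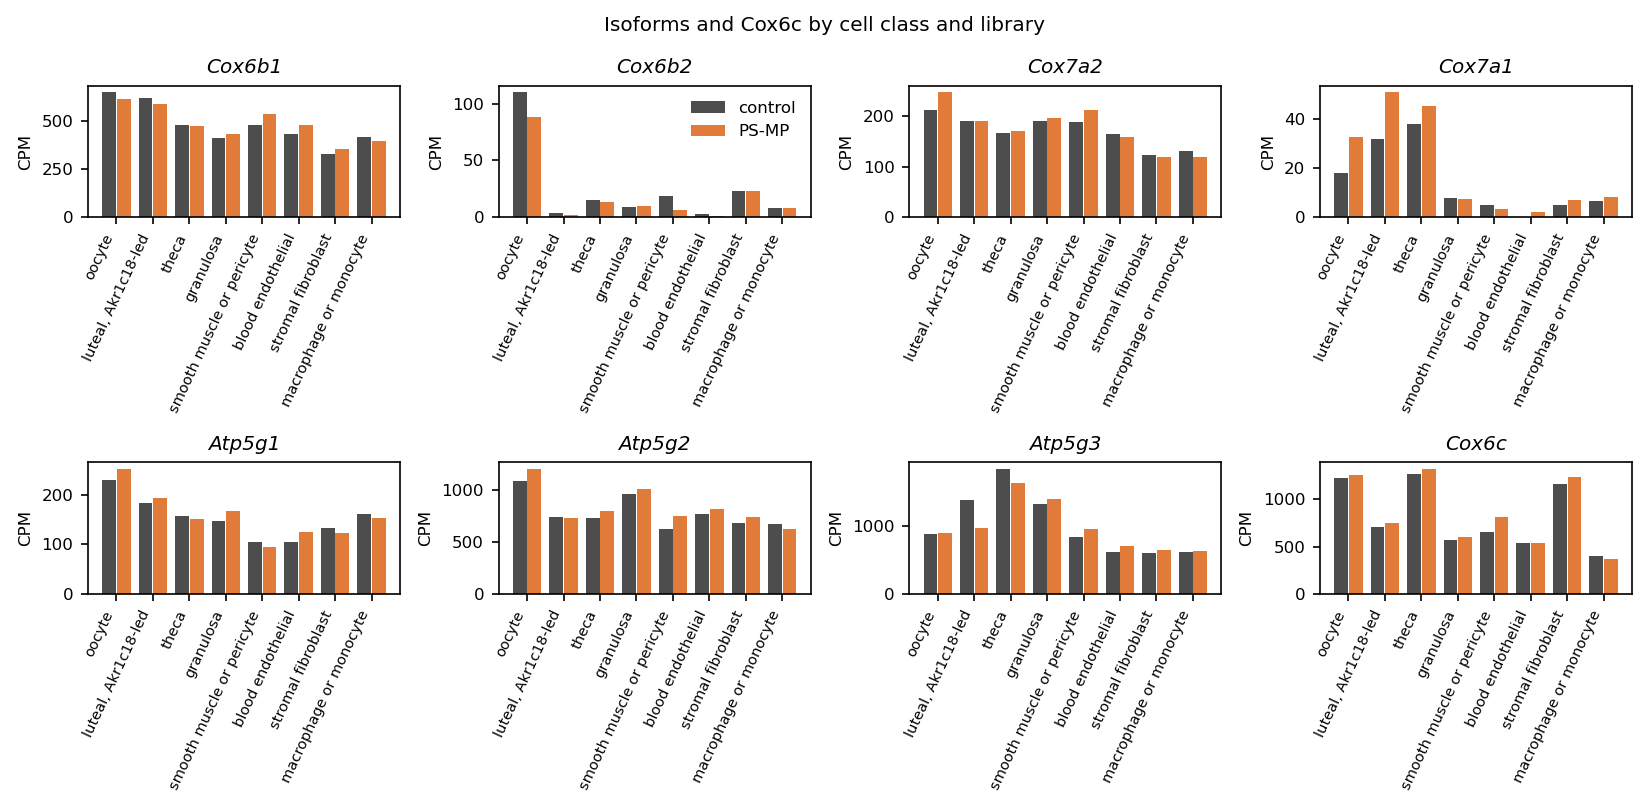
Levels of 8 members in CPM by cell class, for the control (grey) and PS-MP (orange) library, each panel with its own axis from 0. Cox6b2 peaks in oocyte-like cells (110 and 88.4 CPM), Cox7a1 in theca-like and Akr1c18-led luteal-like cells, and Atp5g3 in theca-like cells (1834 and 1621 CPM).

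Among complex IV genes without such a partner, Cox6c had the widest range after Ndufa4. Cox6c, a small membrane subunit, stood at 1272 and 1324 CPM in theca-like, 1225 and 1258 CPM in oocyte-like and 1163 and 1233 CPM in stromal-like cells, but at 572 and 598 CPM in granulosa-like and 396 and 373 CPM in macrophage-like cells. Stromal-like cells, lowest for 34 members, were thus about as high as oocyte-like cells for this gene. Cox4i1, the widespread form of the regulatory subunit 4, and Cox5a, a subunit of the matrix side, stayed nearer to the common order. Cox4i1 ranged from 318 and 323 CPM in stromal-like to 544 and 538 CPM in oocyte-like cells, and Cox5a from 150 and 170 CPM in stromal-like cells to 344 and 350 CPM in the Akr1c18-led cluster. Ndufa4 stood at 353 and 341 CPM in oocyte-like and 82.1 and 104 CPM in mural-like cells. In the latter, its left-out relative Ndufa4l2 stood at 436 and 383 CPM and made up 84.2% and 78.7% of the counts of both genes, against 4.51% and 1.44% in granulosa-like cells. Cox4i2, another left-out isoform, stood at 291 and 281 CPM there and at 25.8 and 17.7 CPM in granulosa-like cells. The third, Cox6a2, was found at 1195 and 742 CPM in plasmacytoid dendritic-like cells, of which there were 71 and 22.

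In complex V, Atp5g1, Atp5g2 and Atp5g3 encode the same mature ring subunit c with different import sequences, and their balance differed between classes. How the counting treated reads shared between such copies or with pseudogenes is not given, so their split is uncertain to that extent. Atp5g3 stood at 1834 and 1621 CPM in theca-like, 1320 and 1394 CPM in granulosa-like and 604 and 644 CPM in stromal-like cells. Atp5g2 varied less, from 673 and 621 CPM in macrophage-like to 1079 and 1199 CPM in oocyte-like cells. Of Atp5g2 and Atp5g3 counts together, Atp5g2 made up 28.4% and 32.8% in theca-like, 42.0% and 41.9% in granulosa-like and 55.3% and 57.4% in oocyte-like cells. Atp5g1 made up 7.94% and 8.52% of Atp5g1 and Atp5g3 counts in theca-like cells and 20.9% and 22.1% in oocyte-like cells. Atp5o, which joins the head of the enzyme to its stalk, stood at 974 and 935 CPM in oocyte-like cells, 571 and 613 CPM in granulosa-like cells and 325 and 320 CPM in macrophage-like cells. The catalytic subunit gene Atp5b went against that order: at 217 and 250 CPM it was lower in oocyte-like than in granulosa-like cells, at 370 and 390 CPM. Atp5a1, the alpha subunit, was flat, between 432 and 663 CPM in the 8 classes of both libraries.

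The windows of Atp5g3 and Ndufs4 are shown because Atp5g3 had the widest range of the 3 ring genes, 2.78-fold, and Ndufs4 was highest in granulosa-like cells. Capitals in the Atp5g3 window, at chr2:73911277-73911576 on the minus strand, mark TCAAGGTCA, which reads TGACCTTGA on the strand printed, and then the NRF1 motif. Capitals in the Ndufs4 window, at chr13:114388045-114388344 on the minus strand, mark AAGATGGC.
Atp5g3: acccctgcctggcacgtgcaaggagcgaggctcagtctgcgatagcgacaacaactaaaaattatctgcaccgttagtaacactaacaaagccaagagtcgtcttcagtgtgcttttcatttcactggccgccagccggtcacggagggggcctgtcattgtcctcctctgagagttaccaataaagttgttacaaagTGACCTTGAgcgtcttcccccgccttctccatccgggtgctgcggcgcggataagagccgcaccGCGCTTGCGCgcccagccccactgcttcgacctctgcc
Ndufs4: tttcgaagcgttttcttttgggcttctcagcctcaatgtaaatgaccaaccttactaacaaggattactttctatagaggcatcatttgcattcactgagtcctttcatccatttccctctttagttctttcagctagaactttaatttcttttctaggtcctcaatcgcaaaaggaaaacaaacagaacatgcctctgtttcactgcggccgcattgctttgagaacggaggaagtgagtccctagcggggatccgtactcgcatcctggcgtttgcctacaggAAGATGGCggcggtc
These windows held 21 and 12 CpG dinucleotides, and the Ndufs4 window had a GC content of 45.3%, below the member median given above.

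Counted by size, members 1.5-fold from granulosa-like cells in both libraries were most numerous in oocyte-like, stromal-like and macrophage-like cells. No class exceeded the share over all genes in either direction, and the higher members in oocyte-like cells were close to it. In oocyte-like cells 21 of 78 members were higher, where 27.7% of all genes were, and 3 were lower, where 17.5% were. The 3 were Atp5b, Atp5g3 and Ndufs4. In stromal-like cells 2 of 78 were higher, Cox6b2 and Cox6c (16.7% of all genes), and 15 lower (23.9%). In macrophage-like cells 0 of 77 were higher (19.0%) and 15 lower (34.4%). Theca-like cells had 3 of 78 higher (14.4%), Cox6c, Cox7a1 and Ndufb11, and 2 lower (20.9%), Atp5o and Ndufs4. The Akr1c18-led cluster had 6 of 78 higher (14.0%), Cox5a, Cox7a1, Ndufb1, Ndufb11, Ndufb6 and Uqcr10, and 1 lower (24.7%), Ndufs4. Endothelial-like cells had 1 of 77 higher (19.2%), Ndufa8, and 3 lower (26.4%), Atp5g3, Atp5o and Ndufs4, and mural-like cells had 1 of 77 higher (17.6%), Sdhc, and 2 lower (23.7%), Ndufa4 and Ndufs4. The Edn2-led cluster, in the PS-MP library alone, had 0 of 77 higher (17.1%) and 4 lower (22.8%), Atp5g1, Atp5g2, Cox7a2l and Ndufb2.

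In granulosa-like cells the members were slightly higher with PS-MP than in the control, and so were all 5 complexes taken singly. Their summed share was 1.741% of counts in the control and 1.853% in the PS-MP library, which gives 1.065 as the ratio (1.063 to 1.067). By complex, the ratio was 1.062 for complex I, 1.050 for complex II, 1.071 for complex III, 1.086 for complex IV and 1.053 for complex V. Of 77 members that reached 20 CPM in either library, 0 were 1.2-fold higher and 0 were 1.2-fold lower, where 1.33% and 4.33% of the 7349 genes tested were. Values lay above 1 for 73 of the 77 members, against 43.2% of all genes, and the median log2 ratio was 0.08, against −0.02 for all genes. The 5 untested members were Cox5b-ps, Cox6b2, Cox7a1, Cox7b2 and Ndufb11b. Chain transcripts encoded in the mitochondrial genome made up 10.2% and 10.3% of counts, a ratio of 1.014 (1.013 to 1.015).

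The highest ratios were those of Ndufv3, an accessory subunit of the NADH-oxidising arm, and of the small complex IV subunit Cox7c. Ndufv3 stood at 153.5 CPM in the control and 179 CPM in the PS-MP library, which gives a ratio of 1.166 (1.141 to 1.191), and Cox7c at 981 and 1127 CPM, a ratio of 1.149 (1.139 to 1.159). Atp5g1 followed at 1.135, Cox6a1, the widespread subunit 6A, at 1.134 and Ndufa6, an accessory subunit of complex I, at 1.125. Ndufs4 was the lowest, from 241 to 218 CPM with a ratio of 0.904 (0.887 to 0.921). Ndufb10, an accessory subunit of complex I, followed at 0.976, then Ndufa11, under 50 CPM, at 0.977 and Cox7a2l at 0.992. Of these 4 members with ratios below 1, only Ndufs4 had an interval below 1. Ndufs1 at 1.001 and Sdhc at 1.007 stood next.

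The small excess was seen in each of the 7 granulosa-like clusters, taken by number. The summed ratio was 1.092 in cluster 0, led by Inhba and Cyp19a1, and 1.074 in cluster 8, led by Inhbb and Inhba with mitotic genes among its leading genes. It was 1.047 in cluster 1, 1.045 in cluster 2, 1.048 in cluster 4, led by Amh, 1.033 in cluster 5, led by mitotic genes, and 1.050 in cluster 9. Without cluster 1 the ratio over granulosa-like cells was 1.068, with 0 members past 1.2-fold in either direction. Complex IV had ratios of 1.135 and 1.127 in clusters 0 and 8 and between 1.044 and 1.087 in the other 5. Ratios lay above 1 in all 7 clusters for 26 of 77 members, and the intervals did so for Atp5k, Cox6a1, Cox7c, Ndufa2 and Ndufb1. Shares over all genes are not given for these counts, so they cannot be called particular to the members. Cox7c ran from 1.105 to 1.179 over the clusters. Cells of cluster 9, with the lowest share of members, at 1.336% in the control library, had the highest share of mitochondrially encoded chain transcripts, at 14.4%.

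Ndufs4 had the widest range of ratios over these clusters among the 77 members, from 0.771 to 1.118. It was 1 of 7 members with an interval above 1 in 1 or more clusters and below 1 in others, beside Atp5g3, Atp5j, Cox4i1, Cox6c, Cox7a2l and Ndufa5. The share of all genes with such intervals is not given. Ndufs4 stood at 357 and 276 CPM in cluster 0, a ratio of 0.771 (0.745 to 0.799), and at 397 and 309 CPM in cluster 8, a ratio of 0.779 (0.742 to 0.819). The ratio was 0.928 (0.885 to 0.974) in cluster 1 and 1.070 (1.022 to 1.121) in cluster 5, while the intervals in clusters 2, 4 and 9 included 1. Its control level was lowest in cluster 9, at 105 CPM. Clusters 0 and 8, where Ndufs4 was highest and lower in the PS-MP library, are those with Inhba among their first 2 leading genes.

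**Figure D4:**
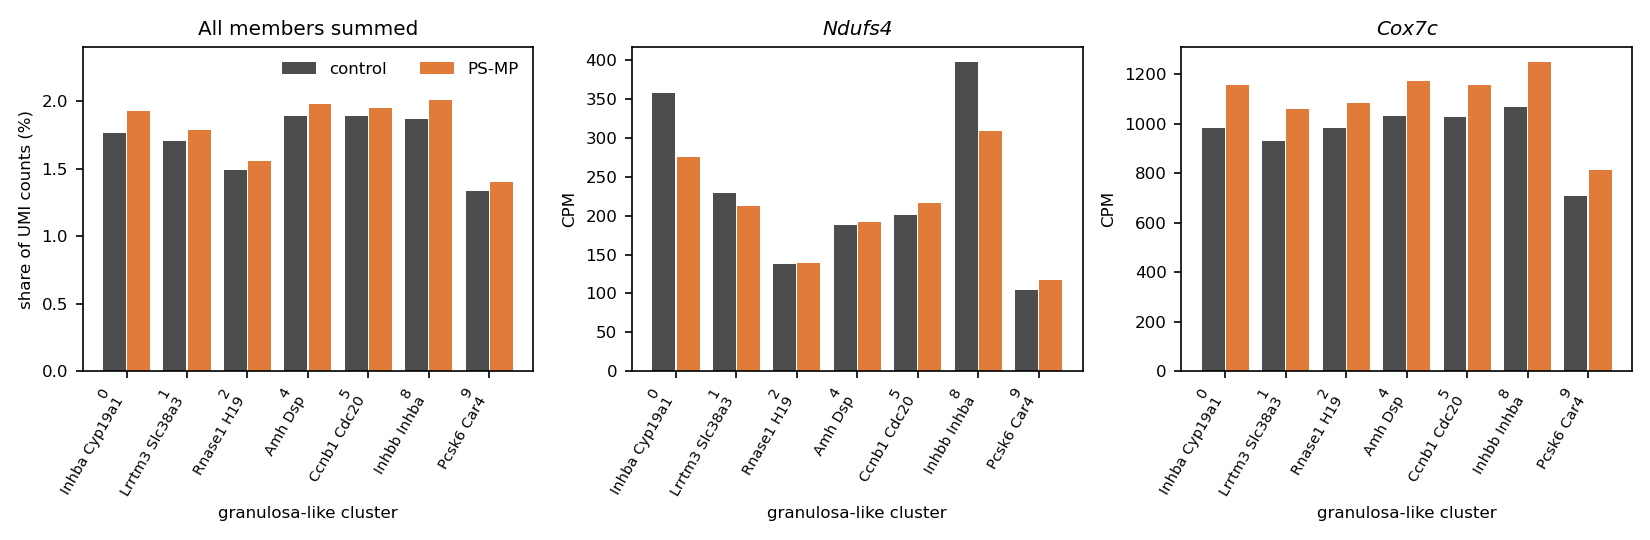
Summed member share of UMI counts (%) and levels of Ndufs4 and Cox7c (CPM) in the 7 granulosa-like clusters, named by number and 2 leading genes, for the control (grey) and PS-MP (orange) library. Ndufs4 is highest in clusters 8 and 0 (397 and 357 CPM in the control library) and lower there in the PS-MP library, while Cox7c is higher in the PS-MP library in all 7.

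Stromal-like and endothelial-like cells also had slightly more member mRNA in the PS-MP library. In stromal-like cells the summed ratio was 1.069 (1.062 to 1.076), and 3 of 78 members were 1.2-fold higher and 0 lower, where 4.96% and 5.95% of all genes were. The 3 were Cox7c, from 648 to 784 CPM with a ratio of 1.211 (1.178 to 1.245), Ndufb7, an accessory subunit of the membrane arm, at 1.205, and Ndufs6, which carries zinc in the peripheral arm, at 1.203. In endothelial-like cells the summed ratio was 1.079 (1.064 to 1.094), with 11 of 77 members 1.2-fold higher and 1 lower, against 12.6% and 18.3% of all genes. Atp5k, a membrane subunit of ATP synthase, stood there at 250 and 316 CPM, a ratio of 1.267 (1.141 to 1.406), and Ndufc1 at 134 and 170 CPM, a ratio of 1.270 (1.100 to 1.465). The member lower there, Ndufb10, had a ratio of 0.825 with an interval of 0.660 to 1.028. The 9 luteal markers summed to 293 and 439 CPM in stromal-like and to 331 and 484 CPM in endothelial-like cells, with 1 of 9 at 0 in endothelial-like control cells. The 6 lymphatic endothelial markers summed to 628 and 324 CPM in endothelial-like cells, with 0 of 6 at 0. The part of these differences in the ratios was not tested.

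In theca-like cells the summed ratio was closer to 1, at 1.020 (1.013 to 1.028), with 0 of 78 members 1.2-fold higher and 1 lower, against 5.76% and 9.95% of all genes. That member, Ndufs1, stood at 98.1 and 78.7 CPM, a ratio of 0.802 (0.718 to 0.894). Atp5g3, highest in these cells, stood at 1834 and 1621 CPM, a ratio of 0.884 (0.862 to 0.906). Ndufv3 had a ratio of 1.180 (1.090 to 1.278), Cox5a of 1.149 and Cox5b, a zinc-binding subunit, of 1.134. With cells of at most 10% mitochondrial counts the summed theca-like ratio was 1.003. The 6 theca markers summed to 2813 and 2242 CPM in this class, with 0 of 6 at 0. The 9 luteal markers summed to 13042 and 13251 CPM there, with 0 of 9 at 0. The 8 stromal fibroblast markers summed to 3489 and 3227 CPM, with 0 of 8 at 0. The part of these markers in the ratios was not tested.

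Macrophage-like cells were lower in the PS-MP library. The summed ratio was 0.967 (0.955 to 0.980), with 0 of 76 members 1.2-fold higher and 5 lower, against 13.7% and 10.6% of all genes. The 5 were Cox5b, from 105 to 84.4 CPM with a ratio of 0.802 (0.684 to 0.936), Atp5c1, the gamma subunit, at 0.809, Atp5l, a membrane subunit, at 0.830, Ndufa8 at 0.825 and Ndufa11 at 0.779. The interval of Ndufa11 included 1. Values lay above 1 for 24 of 76 members, against 47.6% of all genes, and the mitochondrially encoded chain transcripts had a ratio of 1.076. Markers of other cell types also differed between the libraries in this class: the 9 luteal markers summed to 610 CPM in the control and 1143 CPM in the PS-MP library, with 0 of 9 at 0, and Cyp11a1 was found in 36.1% and 52.6% of the cells. The 8 stromal fibroblast markers summed to 142 and 352 CPM with 0 of 8 at 0, the 6 theca markers to 139 and 218 CPM with 1 of 6 at 0 in each library, and the 5 B cell markers to 220 and 127 CPM with 0 of 5 at 0. The 5 neutrophil markers summed to 256 and 210 CPM with 0 of 5 at 0, so the class may also hold neutrophils. The median depths were 6835 and 5655.5 counts, and the part of these differences in the result was not tested.

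The Akr1c18-led luteal-like cluster had members on both sides. The summed ratio was 0.977 (0.965 to 0.989), but 1.001 as a mean over cells and 0.794 with cells of at most 10% mitochondrial counts, which left 83 and 51 cells. Over all cells of the cluster, complexes I and IV stood at 1.026 and 1.014. Complexes II, III and V stood at 0.978, 0.964 and 0.908. Of 78 members, 4 were 1.2-fold higher and 4 lower, where 17.0% and 22.5% of all genes were. Atp5g3 stood at 1381 and 966 CPM, a ratio of 0.699 (0.662 to 0.738), and Cox5b at 150 and 113 CPM, a ratio of 0.755 (0.642 to 0.885). Atp5d, the delta subunit, had a ratio of 0.787 and Ndufa12 of 0.823. Higher were Cox7a1, from 31.9 to 50.9 CPM with a ratio of 1.597 (1.210 to 2.10), Ndufa1 at 1.297, Ndufs6 at 1.214 with an interval that included 1, and Uqcrfs1 at 1.205. In this cluster 42 of 81 cytosolic ribosomal protein genes were 1.2-fold lower and 6 of 9 genes of the response to tissue dissociation 1.2-fold higher. The 6 theca markers summed to 4042 and 5027 CPM, with 1 of 6 at 0 in each library. In theca-like cells they summed to less, 2813 and 2242 CPM, so they do not mark theca-like cells apart from this cluster. The 10 granulosa markers summed to 2511 and 2068 CPM in this cluster, with 0 of 10 at 0. The part of these differences in the members' values was not tested.

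**Figure D5:**
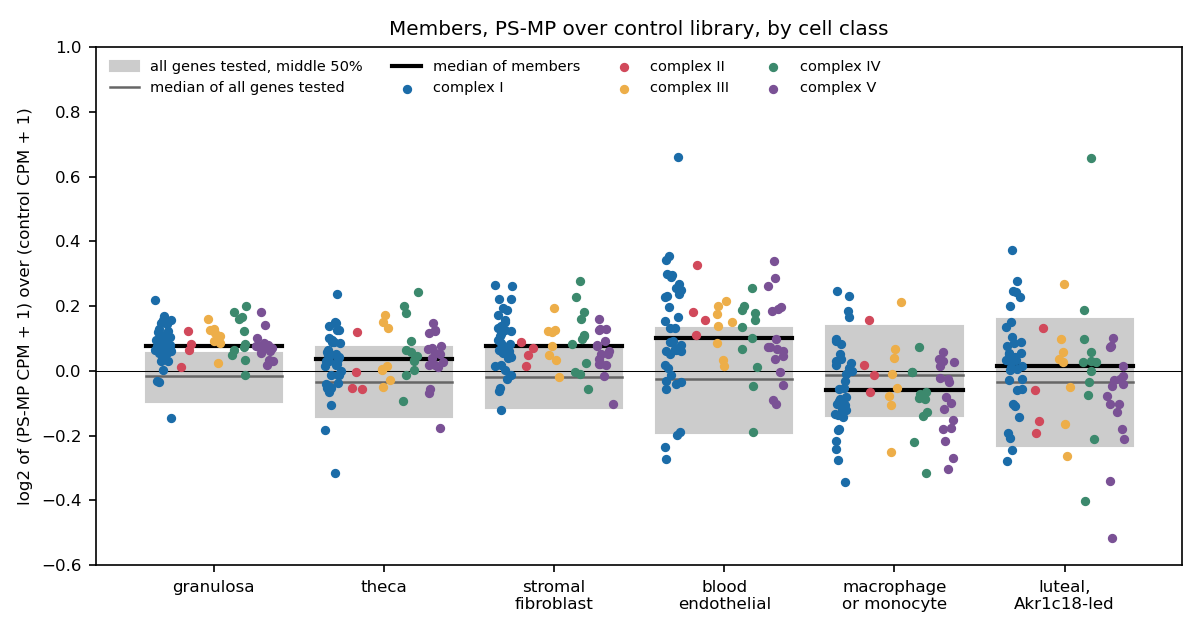
Members tested in each of 6 cell classes, as log2 of (PS-MP CPM + 1) over (control CPM + 1), 1 point per member coloured by complex. Grey boxes span the middle 50% of all genes tested, thin grey lines their median and thick black lines the median of the members, which is 0.08 in granulosa-like and −0.06 in macrophage-like cells.

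Across the 6 classes 76 members were tested in every one. Of these, 43 had ratios above 1 in granulosa-like, theca-like, stromal-like and endothelial-like cells, and 32 of the 43 had ratios below 1 in macrophage-like cells. All classes of a library share its preparation, so they are not independent. Cox7c, Ndufa1, Ndufa2, Ndufa7, Ndufb5, Uqcrb and Uqcrfs1 had ratios above 1 in all 6 classes, and 0 members had ratios below 1 in all 6. The matching shares of all genes are not given, so these patterns cannot be called particular to the members.

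Other mitochondrial genes in granulosa-like cells differed by similarly small amounts. The 74 mitochondrial ribosomal protein genes tested had a median log2 ratio of 0.09, with 1 at least 1.2-fold higher and 0 lower. The 16 genes of the citric acid cycle and pyruvate dehydrogenase had a median of 0.04 and the 28 assembly factors tested a median of 0.04, with 0 genes past 1.2-fold in both lists. Cytosolic ribosomal protein genes had a median of 0.05, with 0 of 82 higher and 2 lower. Among the other chain subunits, Cycs, cytochrome c, stood at 112 and 126 CPM and Cox8a, a small complex IV subunit, at 448 and 441 CPM. Regulators of mitochondrial biogenesis had 0 of 8 tested genes past 1.2-fold. The left-out isoform Cox4i2, at 25.8 and 17.7 CPM, and the mitochondrially encoded complex I gene mt-Nd6, at 25.3 and 18.2 CPM, were lower by more than 1.2-fold.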

How the data were processed

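Single ovarian cells of 1 control and 1 PS-MP library were analysed. The values are raw UMI counts per gene and cell, as deposited by the authors. The submitters' processing notes name Seurat and GRCm39 without a role or version, and the aligner, counter and cell caller were not given in the sources used here. The totals were 160257194 control and 145474989 PS-MP counts.

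Cells with at least 500 genes and at most 25% mitochondrial counts were kept (520 control and 286 PS-MP cells failed the second limit), and 315 and 358 doublets (2.12% and 2.42%) called by scrublet in scanpy 1.11.5 were removed. Both libraries were clustered together without batch correction (2000 variable genes, 30 components, 15 neighbours, Leiden resolution 0.5, leidenalg 0.10.2). A cluster took the class with the highest marker score, if at least 0.15 with 3 markers detected. For each class in each library, counts were added up and divided by their total (CPM), with exact binomial intervals (scipy 1.17.1). With 1 library per group no test was made: a member was counted as higher or lower past 1.2-fold between libraries, or 1.5-fold between classes in both libraries, with at least 20 CPM, and 1 CPM was added for log2 values. Classes needed 100 cells per library for PS-MP over control and 50 for levels. CPM is not divided by transcript length, so levels of different genes were not ranked. Strand use in the counting is not given either.

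Named members were the isoform groups, the core subunits, the 10 widest ranges across classes and the 5 highest and 5 lowest ratios per class among members with at least 50 CPM. Members past a fold limit were named too when few, after their values were seen. The members and lists were chosen with earlier results of these data known. The ratio code was tested on simulated counts. Alternatives covered scaling, the total, doublets, the mitochondrial limit, depth, resolution, averaging and the CPM filter.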

Additional observations from a re-analysis of the deposited data

Results flagged for a closer look

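The summed members pointed in opposite directions in different cell classes of the same pair of libraries. The PS-MP over control ratio was 1.065 in granulosa-like cells, 0.967 in macrophage-like cells and 0.977 in the Akr1c18-led luteal-like cluster. With 1 library per group the difference between these classes was not tested, and the summed value of the Akr1c18-led cluster went to the other side of 1 with another way of averaging. Its complexes were split, with 1.026 for complex I and 1.014 for complex IV. Complexes II, III and V stood at 0.978, 0.964 and 0.908 there.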

How the results depend on the processing

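Of the summed ratios and member counts recomputed under the alternatives, 49 values stayed within their counting interval or count, 30 did not and 3 changed direction. Reclustering at resolution 1.0 and a limit of 50 CPM gave no value outside. At resolution 1.0 a neutrophil-like cluster of 49 control and 14 PS-MP cells was set apart, and macrophage-like cells numbered 668 and 321. PS-MP over control is given first, then luteal-like (both clusters together, 1.213 in the control and 0.970 in the PS-MP library) over granulosa-like cells. Together these were 229 Akr1c18-led and 8 Edn2-led cells in the control, but 131 and 1900 in the PS-MP library. The control and PS-MP values of luteal-like over granulosa-like cells therefore describe different mixtures and are not comparable. Scaling by the median ratio of all genes gave 1.078 in granulosa-like, 1.046 in theca-like, 1.084 in stromal-like, 1.098 in endothelial-like and 1.000 in Akr1c18-led cells, and 1.357 and 1.034 for luteal-like over granulosa-like cells, the latter reversed. Leaving mitochondrial, ribosomal protein and haemoglobin genes out of the total gave 1.072 in granulosa-like and 0.965 in Akr1c18-led cells, and 1.188 and 0.925. With at most 10% mitochondrial counts, values were 1.068 in granulosa-like, 1.003 in theca-like, 0.948 in macrophage-like and 0.794 in Akr1c18-led cells, and 1.304 and 0.907. Thinned cells gave 1.077 in stromal-like and 1.103 in endothelial-like cells, and 1.178 and 0.949. As a mean over cells, values were 1.067 in granulosa-like, 1.012 in theca-like, 1.081 in stromal-like and 1.097 in endothelial-like cells and, reversed, 1.001 in Akr1c18-led cells, and 1.165 and 0.9501. Doublets retained gave 1.051 in stromal-like cells. Granulosa-like clusters weighted alike gave 1.056. Without a filter on low values 1 member was 1.2-fold lower in granulosa-like cells, the pseudogene Cox5b-ps at 2.38 and 1.43 CPM. The cause of these differences was not tested. After seeing the data, the Akr1c18-led cluster alone and granulosa-like cells without cluster 1 (1.068) were added. The Akr1c18-led cluster alone over granulosa-like cells gave 1.210 in the control and 1.110 in the PS-MP library. The latter was reversed against the value of both clusters together.

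No paired analysis was possible because each group is 1 library. Intervals leave out variation between mice, and exposure, library and preparation cannot be told apart. Genes near 20 CPM in the smaller classes rest on under 100 counts, and differences near 1.2-fold were not detectable there.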
